A study of Mus musculus with 16 samples.

Results

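The share of each annotated transcript within its gene was compared between hearts of CAP2 -/- and wild-type (WT) mice. CAP2 belongs to the cyclase-associated proteins, which bind monomeric actin and help actin filaments turn over. Both groups were C57BL/6 females aged 86 weeks, with 3 libraries each of whole-heart RNA made with an Ion total RNA kit. In CAP2 -/- both copies of Cap2 are disrupted in the whole body, so the loss is not limited to one cell type of the heart. The labels name no other allele or treatment in either group. The members, selected on gene counts, were the transcripts of genes with at least 2 listed transcripts and at least 200 estimated counts in each of the 6 libraries. This gave 28448 of 92214 transcripts, in 4664 of 38087 genes. The rule used the gene counts of these same libraries, and not the shares. By lowest count, Chm (200.1), N4bp2l2 (200.1) and Hsd17b7 (200.2) were just inside it, and Tvp23b (199.9), Pard3b (199.8) and Tdrd7 (199.8) just outside.

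A gene can give rise to several mature transcripts through different start sites, alternative splicing of exons and different 3′ ends. In striated muscle this sets which variants of sarcomeric, cytoskeletal and signalling proteins are made, and splicing factors such as RBFOX2, MBNL1 and RBM20 are known for that role in the heart. A transcript's share is its part of the gene's reads, so a share can differ while the gene's level does not, and the reverse. In whole-heart RNA a different mixture of cells and a different choice of transcript within a cell cannot be told apart.

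Several of the transcripts described here hold a short coding exon that another transcript of the gene lacks. Tropomyosin 2, which lies along the actin filament, has a pair of mutually exclusive internal exons of 76 bases on the minus strand of chromosome 4 (mm10). They differ at 35 of 76 positions (identity 53.9%), shown in capitals. The exon of Tpm2-203 lies at chr4:43519003-43519078 and that of Tpm2-202 at chr4:43518644-43518719. Each of these 2 transcripts holds 159 coding bases that the other lacks, so they also differ outside the printed exons.
Tpm2-203: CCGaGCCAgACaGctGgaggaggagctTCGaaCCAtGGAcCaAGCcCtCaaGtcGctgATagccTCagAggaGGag
Tpm2-202: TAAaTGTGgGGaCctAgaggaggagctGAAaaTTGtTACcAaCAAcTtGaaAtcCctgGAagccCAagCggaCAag

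The next 4 are coding exons that 1 transcript of a named pair holds and the other lacks. Each pair also differs at other bases, in Gsk3b at 6592 bases held only by Gsk3b-201. Capitals mark the exon and lower case the 20 bases on either side in the same transcript. Smyd1, a muscle histone methyltransferase and myosin-binding factor, has a 39-base exon in Smyd1-201 (chr6:71235343-71235381, minus strand) that Smyd1-202 lacks. Gsk3b, a serine/threonine kinase, has a 39-base exon in Gsk3b-202 (chr16:38217113-38217151, plus strand) that Gsk3b-201 lacks. Postn, a matrix protein of activated fibroblasts, has an 84-base exon in Postn-201 (chr3:54385671-54385754, plus strand) that Postn-204 lacks. Sptan1, the alpha-spectrin of the membrane skeleton, has a 60-base exon in Sptan1-203 (chr2:30001100-30001159, plus strand) that Sptan1-201 lacks. All 4 lengths divide by 3, so each exon keeps the reading frame.
Smyd1-201: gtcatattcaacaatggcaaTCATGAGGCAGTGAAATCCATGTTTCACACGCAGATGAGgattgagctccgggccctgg
Gsk3b-202: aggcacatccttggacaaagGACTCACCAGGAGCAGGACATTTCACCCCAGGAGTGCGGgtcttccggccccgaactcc
Postn-201: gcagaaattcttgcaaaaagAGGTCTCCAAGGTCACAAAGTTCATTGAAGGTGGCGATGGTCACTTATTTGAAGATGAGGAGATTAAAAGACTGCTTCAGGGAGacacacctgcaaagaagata
Sptan1-203: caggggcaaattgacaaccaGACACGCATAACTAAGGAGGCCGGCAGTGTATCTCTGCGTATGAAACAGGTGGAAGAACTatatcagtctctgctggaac

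The libraries held 10750175 to 27440478 estimated counts, and the members' genes are the better-covered part of them. Cap2 has 3 listed transcripts but is not a member, because its estimated counts were 92.2, 226 and 189 in the CAP2 -/- libraries against 2353 to 5476 in WT. At gene level its log2 fold change was -4.13 (edgeR adjusted p = 1.00e-07). Of 7 marker lists for other cell types or atrial tissue, no gene passed the gene-level test but Nppa, the atrial natriuretic peptide gene. The atrial list summed to 114 to 156 CPM (counts scaled to the library total) in WT and 3848 to 4586 in CAP2 -/-, and Nppa carried that sum, at 73.6 to 116 CPM in WT and 3809 to 4550 in CAP2 -/-. None of the other 5 was called. Myl4 had 5.71 to 7.03 CPM in WT and 9.64 to 11.3 in CAP2 -/-, and Bmp10 0 to 0.469 and 0.985 to 2.61, both without overlap. Myl7 was at 1.10 to 1.32 CPM in WT and 1.12 to 1.74 in CAP2 -/-, Stard10 at 32.6 to 33.3 and 23.3 to 26.4, and Sln at or near 0 in all 6 libraries. The erythroid list summed to 2364 to 4316 CPM in WT and 1394 to 10643 in CAP2 -/-, with CAP2 -/- replicate 1 highest. Whether the erythroid counts bear on the share results was not tested.

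Most genes had 1 dominant transcript. The genes had a median of 5 listed transcripts, and the leading one held a median share of 65.1%. It held at least 90% in 669 genes and under 50% in 1379. The leading transcript was annotated as protein coding in 85.6% of genes, as retained intron in 187 and as a target of nonsense-mediated decay, the pathway that degrades transcripts with an early stop codon, in 183. Of the 28448 transcripts, 16633 had a mean share below 5% and 253 above 95%, and these were left out of the test. The remaining 11562, in 4398 genes, were tested.

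Distances in transcript share between libraries of different groups covered the range of those within a group. The mean absolute difference in share was 6.84 to 7.23 percentage points between pairs of WT libraries, 7.23 to 7.94 between pairs of CAP2 -/- libraries and 6.81 to 8.15 between libraries of different groups. The leading transcript was the same in both libraries for 87.2% to 88.0% of genes within WT, for 86.1% to 86.9% within CAP2 -/- and for 85.8% to 88.0% across the groups. The range across the groups overlaps both others, while those within WT and within CAP2 -/- do not meet. For the difference in share the gap is narrow, between 7.226 points (the largest within WT) and 7.234 (the smallest within CAP2 -/-). Pairs within a group share libraries, and a difference in spread between the groups was not tested. The median distance across the groups, 7.31 points, lay between those within WT (7.10) and within CAP2 -/- (7.43), and the largest distance of all was across the groups.

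**Figure D1:**
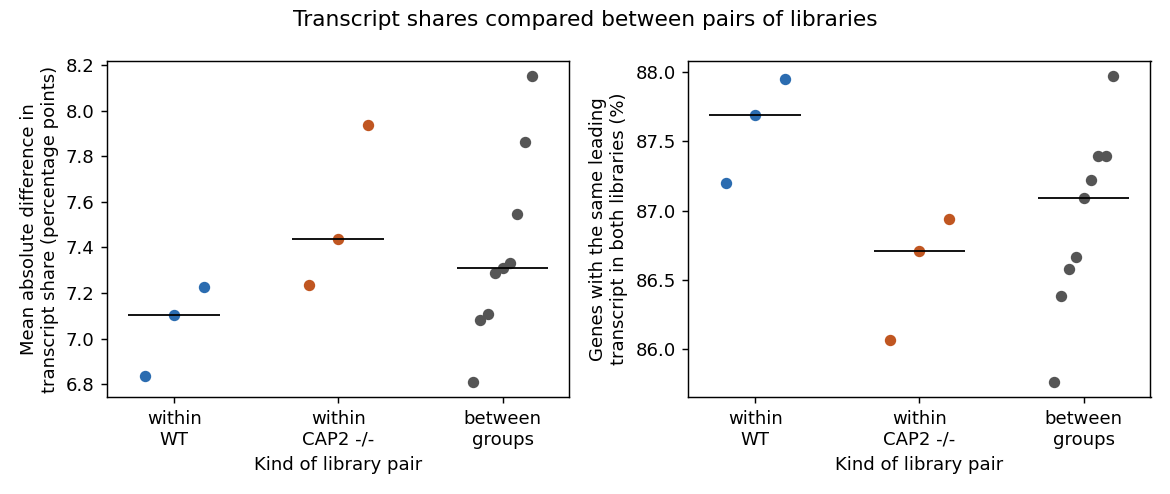
Each point is 1 pair of libraries and each line the median of its kind. The left axis gives the mean absolute difference in share over the tested transcripts (percentage points) and the right axis the percent of genes with the same leading transcript. Pairs across the groups span 6.81 to 8.15 points, a range that holds all 6 pairs within a group.

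No transcript share differed between CAP2 -/- and WT at an adjusted p of 0.05 by limma (0 of 11562, a background of 0%). At an unadjusted p under 0.05 there were 631 transcripts (5.46%), 311 (2.69%) with a higher and 320 (2.77%) with a lower share in CAP2 -/-. They lay in 450 genes. The shares of a gene sum to a near constant, so a higher share of 1 transcript goes with lower shares of others. Transcripts of a gene, and the balance of higher and lower, are therefore not independent. Groups did not overlap for 1203 transcripts (10.4%), 570 higher and 633 lower. With shares rescaled to sum to 1 in each gene, 628 passed an unadjusted p of 0.05 and none the adjusted one. The smallest adjusted p was 0.758. edgeR on estimated transcript counts called 1 transcript, Srpk1-201.

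**Figure D2:**
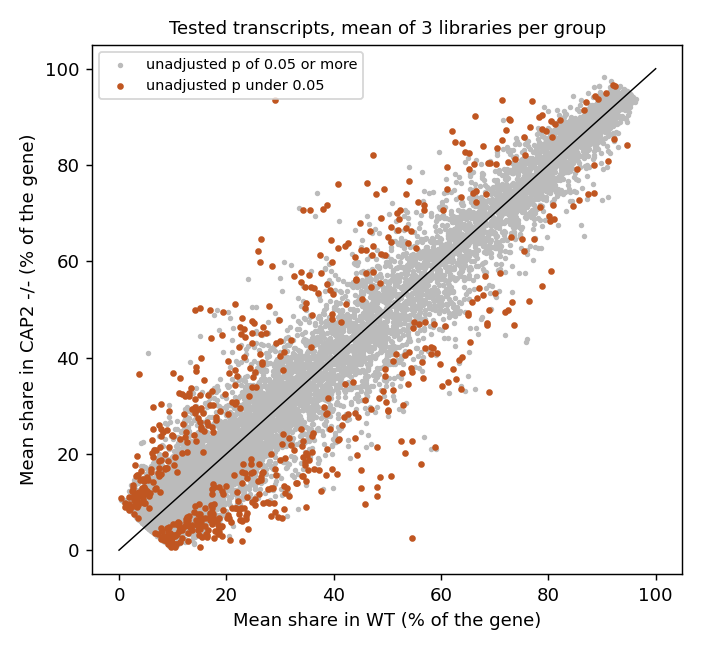
Each point is 1 of 11562 tested transcripts, with its mean share in 3 WT libraries on the x axis and in 3 CAP2 -/- libraries on the y axis (percent of the gene). Orange marks the 631 with an unadjusted p under 0.05, and the line marks equal shares.

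The intervals give the precision of these comparisons. The 95% interval of a share difference had a median margin of 9.47 points to either side, with a 10th percentile of 5.32 and a 90th of 21.3. It lay wholly within 10 points of 0 for 3740 transcripts (32.3%) and within 20 points for 8653 (74.8%). For 45 of the 11562 tested transcripts it lay wholly beyond 10 points. Each interval is that of its own transcript, with no adjustment for the number tested, and none of these 45 transcripts was called by limma. Deeper genes were more precise, with a median margin of 11.2 points for genes with a lowest count of 200 to 500 and 5.81 points above 5000.

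**Figure D3:**
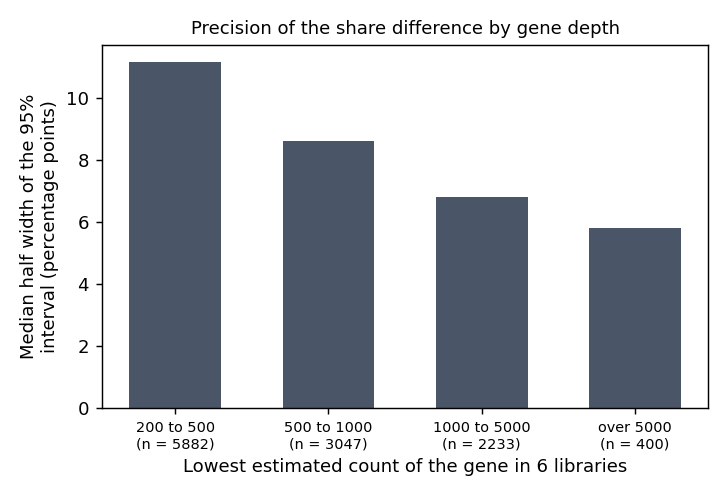
Bars give the median margin of the 95% interval of the share difference (percentage points) for tested transcripts binned by the lowest estimated count of their gene. It falls from 11.2 points in the lowest bin to 5.81 in the highest.

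The spread of a share also followed how much sequence a transcript has to itself. Of the tested transcripts, 3419 (29.6%) have no base of their own, as each of their bases is also held by some other listed transcript of the gene. Their median replicate SD was 6.07 points, against 3.45 for the 2512 with at least 500 bases of their own. The percent with an unadjusted p under 0.05 was 7.22% in the first class, 6.30% with fewer than 100 own bases, 5.19% with 100 to under 500 and 2.39% with 500 or more. The percent without overlap between the groups varied less over the same classes, at 10.6%, 10.6%, 10.4% and 9.87%. The median lowest gene count was 491 in the first class and 462 in the last. The median WT share was 19.4% in the first class and 54.3% in the last. These percentages are a description, with no test of the trend.

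Among genes of the sarcomere and Z-disc, 8 of 92 transcripts in 33 genes had an unadjusted p under 0.05 (8.70%, against 5.46% of all tested), 5 higher and 3 lower. The list's median absolute difference was 2.74 points, against 2.93 over all tested transcripts. Pdlim7 (chr13:55495795-55513676) encodes a PDZ and LIM domain protein of the Z-disc. Pdlim7-206 had shares of 43.6%, 40.7% and 50.5% in WT and 67.0%, 72.4% and 64.2% in CAP2 -/-. The groups did not overlap, and the difference was 22.9 points (95% interval 13.8 to 31.9; adjusted p = 0.835 by limma). The retained-intron transcript Pdlim7-209 was lower, at 18.7% ± 8.52 in WT and 6.74% ± 3.51 in CAP2 -/- (SD, n = 3). Pdlim7 as a gene was called higher by 1.37 on the log2 scale (SE 0.17; adjusted p = 0.000585 by edgeR).

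The shares of Smyd1 varied little between replicates. Smyd1-202 had 55.3%, 55.3% and 54.1% in WT and 46.7%, 48.4% and 47.0% in CAP2 -/-, a difference of -7.57 points (95% interval -10.9 to -4.23; adjusted p = 0.835 by limma). Smyd1-201, which holds the 39-base exon printed above, had 36.0%, 35.4% and 36.0% in WT and 42.4%, 40.2% and 43.8% in CAP2 -/-. The exon itself held 0.220% ± 0.033 of the gene's exonic counts in WT and 0.182% ± 0.070 in CAP2 -/- (SD, n = 3), so its own counts were not higher where the share of its transcript was. Synpo2l-203, of a Z-disc and actin-associated protein gene, had 8.35%, 9.38% and 7.85% in WT and 17.7%, 14.2% and 19.3% in CAP2 -/-, with no overlap (adjusted p = 0.835 by limma). It lacks coding exons 2 and 3 of Synpo2l-202. Exon 2 held 7.51% ± 1.14 of the gene's exonic counts in WT and 7.68% ± 1.33 in CAP2 -/- (SD, n = 3). Exon 3 held 9.52% ± 0.722 in WT and 6.86% ± 0.793 in CAP2 -/-, and neither exon was called.

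The actin cytoskeleton and MRTF/SRF list had 12 of 114 transcripts at an unadjusted p under 0.05 (10.5%), in 43 genes, 8 higher and 4 lower. Tpm2-202 had shares of 7.08%, 3.02% and 0.941% in WT and 21.01%, 54.6% and 33.9% in CAP2 -/-. Tpm2-203 had 49.9%, 57.0% and 37.3% in WT and 28.3%, 1.55% and 9.38% in CAP2 -/-. Both were without overlap, in opposite directions, with differences of 32.8 points (95% interval 12.2 to 53.4; adjusted p = 0.835 by limma) and -35.0 points (-55.3 to -14.7; adjusted p = 0.835 by limma). The 2 directions are not independent, since both are shares of 1 gene. The spread within CAP2 -/- was wide, with an SD of 17.0 points for Tpm2-202.

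The counts of the printed Tpm2 exons differed in the same directions, without passing the test. The exon of Tpm2-202 had 6.25, 0.518 and 0.236 estimated counts in WT and 6.63, 51.6 and 31.6 in CAP2 -/-. The exon of Tpm2-203 had 77.3, 21.9 and 49.7 in WT and 17.2, 19.6 and 21.1 in CAP2 -/-. As a part of the gene's exonic counts the first was 0.357% ± 0.370 in WT and 4.14% ± 2.50 in CAP2 -/-, and the other 10.6% ± 1.12 and 3.22% ± 1.04 (SD, n = 3). Neither passed the exon test (edgeR adjusted p = 0.313 and 1.00), and without CAP2 -/- replicate 1 the first did (adjusted p = 0.0268). Exon and transcript values come from the same reads and are not separate evidence. For the gene as a whole log2 CAP2 -/- over WT was 1.40 (SE 0.32; adjusted p = 0.135 by edgeR).

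**Figure D4:**
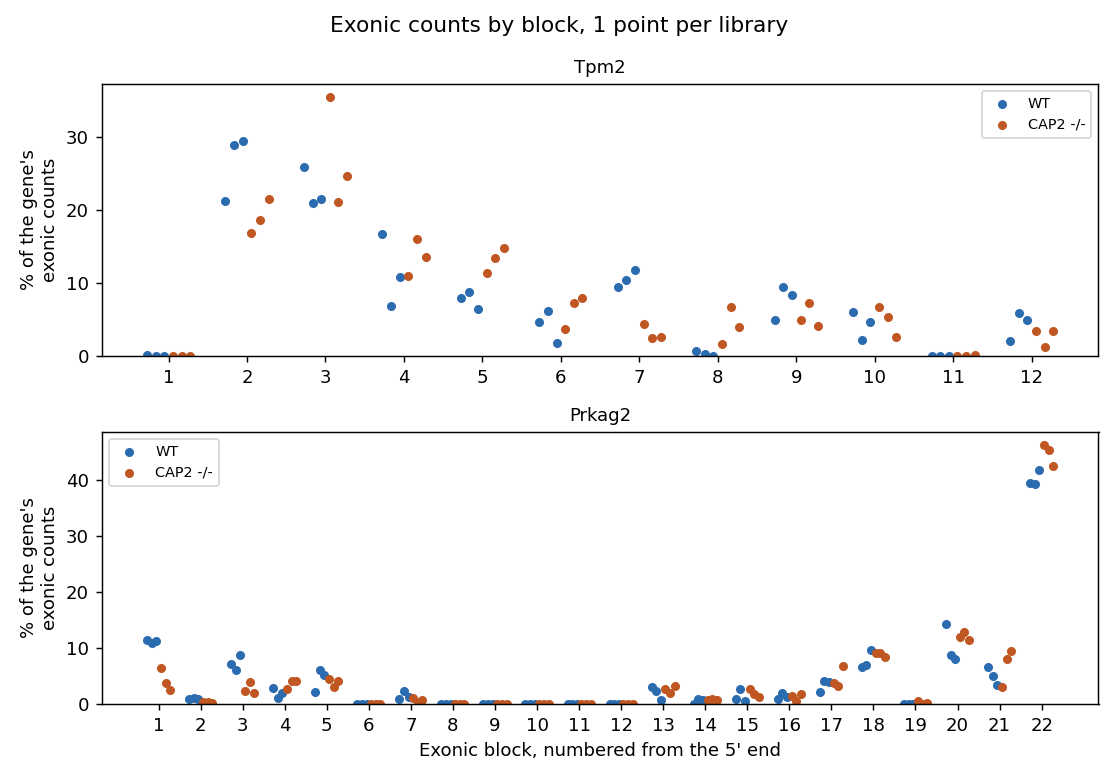
Points give the percent of a gene's exonic counts in each exonic block, numbered from the 5′ end, for 3 WT (blue) and 3 CAP2 -/- (orange) libraries of Tpm2 and Prkag2. In Tpm2 blocks 7 and 8 are the mutually exclusive exons, and in Prkag2 block 1 is the first exonic block.

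Enah (chr1:181904445-182019980) encodes an actin filament elongation factor. Enah-203, which lacks 846 coding bases held by Enah-204, had 15.5%, 9.36% and 15.5% in WT and 41.3%, 25.1% and 34.4% in CAP2 -/- (adjusted p = 0.835 by limma). The groups did not overlap. Enah-204 and Enah-205 were listed with the same share in every library, one of 8 genes with such pairs. Sptan1-203 had 8.37% ± 1.97 in WT and 2.96% ± 0.553 in CAP2 -/- (SD, n = 3), and its printed exon had 10.9, 6.56 and 9.98 estimated counts in WT against 1, 0 and 2.85 in CAP2 -/-. Add1-201, of the spectrin-binding protein adducin 1, had 21.1% ± 0.873 in WT and 30.9% ± 3.45 in CAP2 -/-. Cap1, the paralogue of Cap2, had 1 tested transcript, Cap1-201, with 76.6%, 77.0% and 74.4% in WT and 75.9%, 82.1% and 79.6% in CAP2 -/-. These overlap, and the 95% interval of the difference was -2.92 to 9.34 points.

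**Figure D5:**
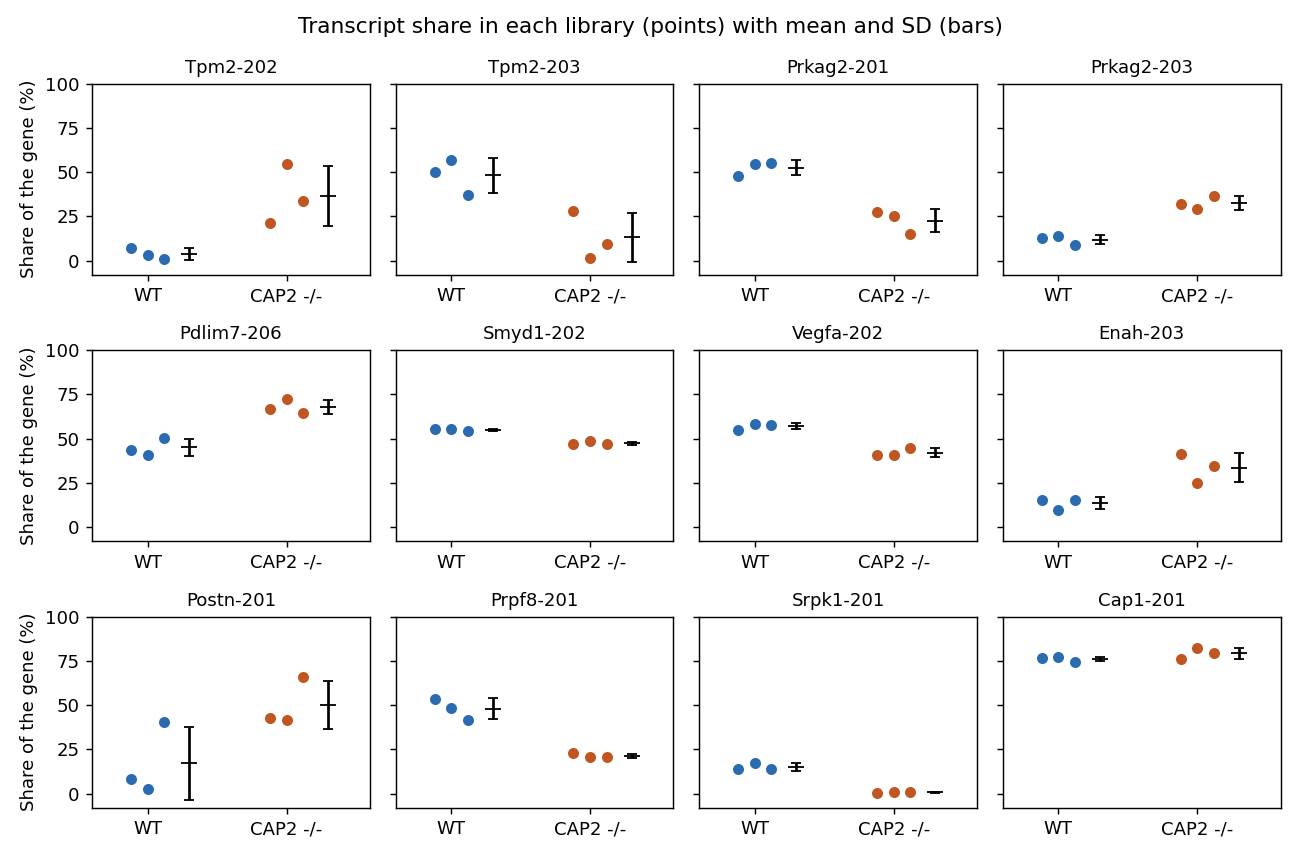
Each panel is 1 transcript, with its share of the gene in each library as points and the mean with SD beside them (percent). Groups do not overlap for Prkag2-201 or Pdlim7-206, and overlap for Cap1-201.

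In the list of muscle signalling and transcription factors, 10 of 107 transcripts in 39 genes had an unadjusted p under 0.05 (9.35%), 5 in each direction. Vegfa (chr17:46016993-46032377) encodes a main endothelial growth factor. Vegfa-202 had 55.0%, 58.3% and 57.6% in WT and 40.6%, 40.6% and 44.8% in CAP2 -/-, a difference of -15.0 points (95% interval -19.8 to -10.2; adjusted p = 0.835 by limma). Vegfa-201, with 666 fewer coding bases, had 10.9%, 5.53% and 7.15% in WT and 16.6%, 11.8% and 18.7% in CAP2 -/-. The exonic block with the 132-base coding exon that Vegfa-202 holds and Vegfa-201 lacks went the other way, with 7.94% ± 0.932 of the gene's exonic counts in WT and 9.84% ± 1.87 in CAP2 -/- (SD, n = 3; edgeR adjusted p = 1.00). That block spans 382 bases, so it also holds bases of other transcripts. Gsk3b-202 had 12.5% ± 2.18 in WT and 5.89% ± 1.21 in CAP2 -/- (SD, n = 3). The 39-base exon that sets Gsk3b-202 apart from Gsk3b-201 was listed at 0 counts in all 6 libraries. Esrrg-203 and Yap1-201, of a nuclear receptor and a Hippo pathway co-activator, differed by -14.3 and 15.9 points, with adjusted p-values of 0.884 and 0.895 by limma.

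The other lists were as follows. Of RNA splicing and RNA-binding factors, 9 of 147 transcripts had an unadjusted p under 0.05 (6.12%), 5 higher and 4 lower. Rbfox2-203 had 44.3%, 73.2% and 74.4% in WT and 46.8%, 30.4% and 43.0% in CAP2 -/-, and the groups overlapped through WT replicate 1. This transcript has no base of its own. The 40-base coding exon that it holds and Rbfox2-202 lacks had 0.967, 0 and 1 estimated counts in WT and 0, 0 and 1.13 in CAP2 -/-. Few reads thus fell on this exon. Counts for the 43 coding bases that Rbfox2-202 holds and Rbfox2-203 lacks are not given here. The retained-intron transcript of the splicing factor gene Srsf5, Srsf5-212, had 19.8% ± 1.43 in WT and 32.4% ± 5.77 in CAP2 -/- (SD, n = 3). Zranb2-204 and Ptbp1-214 differed by 26.9 and -9.44 points, neither called. Of known splicing targets of RBM20, MBNL, RBFOX or CELF, 6 of 103 transcripts were at an unadjusted p under 0.05 (5.83%), near the background. Among these Fhl1-204, Rtn4-203 and Mef2d-201 had higher shares by 10.2, 13.4 and 5.66 points and Slc25a3-202 by 10.5 points, all with an adjusted p of at least 0.895 by limma.

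Of mitochondrial metabolism genes, 12 of 147 transcripts had an unadjusted p under 0.05 (8.16%), 6 in each direction. Ogdh encodes a subunit of the oxoglutarate dehydrogenase complex. Ogdh-204 had 31.9%, 30.8% and 22.2% in WT and 20.05%, 20.8% and 19.3% in CAP2 -/-, with no overlap (adjusted p = 0.884 by limma). Ndufs1-203, Mff-201 and Atp5a1-202 differed by -7.39, -14.8 and -6.70 points, none called. The 220-base block with a 60-base coding exon that Mff-201 holds and Mff-209 lacks had 4.04% ± 0.523 of the exonic counts of Mff in WT and 4.25% ± 0.300 in CAP2 -/- (SD, n = 3), so it was not lower with the share of Mff-201. Calcium handling and ion channel genes had 0 of 69 transcripts at an unadjusted p under 0.05. Atp2a2-202, of the calcium pump of the sarcoplasmic reticulum, had 54.8%, 72.1% and 75.2% in WT and 87.6%, 78.6% and 74.8% in CAP2 -/-, with overlap.

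Of extracellular matrix and adhesion genes, 4 of 79 transcripts had an unadjusted p under 0.05 (5.06%). Postn-201 had 8.19%, 2.30% and 40.4% in WT and 42.5%, 41.6% and 65.7% in CAP2 -/-. WT replicate 3 lay next to the CAP2 -/- values, and the interval of the difference ran from 4.12 to 61.8 points (adjusted p = 0.884 by limma). Its printed exon had 11, 0 and 6 estimated counts in WT and 11.6, 59.4 and 85.1 in CAP2 -/-. For the gene, log2 CAP2 -/- over WT was 2.09 (SE 0.34, adjusted p = 0.0646 by edgeR). As a part of the gene's exonic counts the exon held 0.803%, 0% and 0.923% in WT and 0.914%, 1.54% and 2.67% in CAP2 -/-. CAP2 -/- replicate 1 thus lay among the WT values, and the exon was not called. Ctnna3-201, Cd151-203 and Fbln2-206 differed by -6.08, 11.5 and 6.47 points, none called.

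The leading transcript was the same in all 6 libraries for 3429 genes (73.5%). It differed between the groups in every library for 16 genes (0.343%). Prkag2 (chr5:24862744-25100642), which encodes a regulatory subunit of the energy sensor AMPK, was one of them. Prkag2-201, with 720 coding bases that Prkag2-203 lacks, had 47.5%, 54.8% and 55.4% in WT and 27.5%, 25.4% and 14.9% in CAP2 -/-. Prkag2-203 had 12.7%, 13.8% and 8.96% in WT and 32.1%, 28.9% and 36.4% in CAP2 -/-. The differences were -29.9 points (95% interval -40.6 to -19.3) and 20.7 points (13.3 to 28.01; adjusted p = 0.835 by limma). The first exonic block of the gene held 11.4%, 10.9% and 11.3% of its exonic counts in WT and 6.52%, 3.87% and 2.51% in CAP2 -/- (edgeR adjusted p = 0.941). As a gene, Prkag2 was called higher by 0.93 on the log2 scale (SE 0.12; adjusted p = 0.000462 by edgeR).

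Of the other 15 genes, the largest share differences were in Sulf1, D17H6S53E, Gcc2, Gm4070, Jmjd6, Ift81, Nob1, Pi4ka and Bfar. Sulf1 encodes an endosulfatase that trims heparan sulfate. Sulf1-203 had 42.3%, 61.1% and 48.9% in WT and 29.1%, 7.32% and 9.52% in CAP2 -/-, while Sulf1-201 had 28.8%, 3.77% and 12.6% in WT and 29.9%, 59.5% and 61.6% in CAP2 -/-. These have the same coding length, 2613 bases. In CAP2 -/- replicate 1 the pair was nearly level. The genes of this group were chosen for the swap, so it is a description.

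Prpf8 and Srpk1 were chosen after their values were seen, for their small p-values. Prpf8 encodes a core component of the spliceosome. Prpf8-201 had 53.7%, 48.6% and 41.8% in WT and 22.7%, 20.7% and 20.8% in CAP2 -/-, a difference of -26.6 points (95% interval -34.4 to -18.8; limma adjusted p = 0.758). Prpf8-202 was higher by 26.2 points; both have the same coding length of 7008 bases. Srpk1 encodes a kinase of splicing factors. Srpk1-201, annotated as a target of nonsense-mediated decay with no base of its own, had 13.9%, 17.5% and 13.6% in WT and 0.368%, 0.648% and 0.932% in CAP2 -/-. Its adjusted p was 0.758 by limma and 0.0475 by edgeR on estimated transcript counts.

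Mean shares by transcript type overlapped between the groups. The mean share of protein-coding transcripts was 79.3% to 79.7% in WT and 79.4% to 80.1% in CAP2 -/-. That of retained-intron transcripts was 7.77% to 7.85% and 7.55% to 7.96%. CAP2 -/- replicate 1 had the lowest retained-intron value and the highest percent of counts in the last exonic block of a gene. The latter was a median of 36.7%, against 34.3% to 35.1% in the other 5 libraries. Whether these values bear on the other results was not tested, and call counts without this library are given below.

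At the level of exonic blocks, 0 of 46412 were called by edgeR (0%), with 1312 (2.83%) at an unadjusted p under 0.05 and 0 called by limma-voom. Without CAP2 -/- replicate 1, 13 were called. These were Tpm2 block 8, 9 blocks of Myh7, and 1 block each of Pds5b, Pbrm1 and 4932438A13Rik. Myh7 encodes the slow cardiac myosin heavy chain. Whether some of its reads were split with the near-identical Myh6 was not tested, which leaves these values uncertain. Myh7 block 17 held 0.401%, 0.708% and 0.441% of the gene's exonic counts in WT and 0.512%, 2.25% and 2.04% in CAP2 -/-, so CAP2 -/- replicate 1 lay among the WT values.

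Genes called at gene level were set beside the other members. Of the 4664 genes, 86 were called at gene level, 50 higher and 36 lower, where 1.35% of all 16297 genes tested were called, 0.841% higher and 0.509% lower. Among the called, 79 genes had 224 tested transcripts, of which 23 (10.3%) had an unadjusted p under 0.05 and 35 (15.6%) did not overlap, with 0 called. For the other genes the values were 5.36% and 10.3%. The leading transcript was the same in all 6 libraries in 67 of the 86 genes (77.9%), against 73.5% of all members. Myl9, a myosin light chain gene, had a log2 fold change of 4.54, and its transcript Myl9-201 had shares of 65.3%, 78.5% and 85.0% in WT and 81.7%, 85.4% and 84.7% in CAP2 -/-, which overlap.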

How the data were processed

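The deposited table of experiment A holds, per the file headers, rows for genes, transcripts and exons. The authors deposited estimated counts, which need not be whole, for genes and exons, and a fraction (0 to 1) for each transcript, here termed its share. Shares sum to a median of 94.9% within a gene; once scaled, they match the transcript's part of the summed exon rows to a median of 0.0451 points, so they are not divided by transcript length. The nature of the remainder, the counter and the authors' annotation: not given in the sources used here. The submitters' processing notes list STAR 2.6.0c, DESeq and mm10 without saying what each was used for.

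Shares were tested with limma 3.58.1 in R 4.3.3 on the arcsine square root scale (robust, trend on the gene count), for transcripts with a mean share of 5% to 95%. Intervals come from the same fit on untransformed shares. Exon rows overlap between transcripts, so they were merged to 70458 exonic blocks, leaving out 5049 exons that span others, which departs from the planned test on exon rows. Blocks with a mean of at least 10 counts were tested with edgeR 4.0.16 (diffSpliceDGE), and rounded gene counts with its quasi-likelihood test. Benjamini-Hochberg adjustment ran over all features of a fit, and an adjusted p under 0.05 is termed called.

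Transcript names, types and sequences come from GENCODE M21 (mm10), which held 27466 of the 28448 transcripts; 24911 had the same exons. The members, the gene lists and the named genes' rule were chosen with earlier results of these data known. Named were up to 4 genes of each list by smallest p, Cap1, and up to 10 genes whose leading transcript differed between groups in every library. A gene that this rule names is not reported here, though counts include it. The same replicate numbers occur in both groups. Nothing in the labels says that libraries are separate animals, so p-values may measure technical spread only. The chi-square per gene between libraries of a group was 10.8 to 29.4, above sampling noise, so none was counted as a repeat run of the same library. This value cannot tell separate animals from separate preparations of the same animal. The fits were tested on simulated data. Alternatives covered the scale, share and count limits, the trend, another tool, a replicate block, each library left out, and rescaled shares, the last chosen after seeing the data. Experiment B was not used here.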

Additional observations from a re-analysis of the deposited data

How the results depend on the processing

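No transcript was called under the other scales, share limits, count limits, rescaled shares or any left-out library; edgeR on estimated transcript counts called 1 transcript in 1 gene. Exonic blocks called numbered 2 with a mean of at least 1 count (in Gnas and Phrf1) and 0 to 13 with 1 library left out, the 13 without CAP2 -/- replicate 1. At gene level 220 genes were called, 512 with no filter on low counts, 391 by DESeq2 and 126 to 275 with 1 library left out. With the replicate number as a block, 0 transcripts and 0 exonic blocks were called, and it changed no other call count by over 1.5 times. Same-numbered libraries' share deviations correlated at 0.08, -0.0202 and 0.0082, and not every library correlated best with its own number. With 3 libraries per group, these values cannot settle whether the numbers pair the libraries. Of 85 named transcripts, 1 changed direction: Fbln2-202 (-6.60 points) ranged from -15.6 to 0.25 with 1 library left out, the last without WT replicate 1. The cause was not tested. The median interval reached 9.47 points to either side, and still 5.81 points in genes above 5000 counts; how much of it comes from counting depth was not tested.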
